A study of Mus musculus with 8 samples.

Results

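The 10 genes described here encode the machinery that decides whether a resting blood stem cell enters the cell cycle. They are the Cip/Kip inhibitors Cdkn1a and Cdkn1b, the Ink4 inhibitors Cdkn2c and Cdkn2d, the D cyclins Ccnd1, Ccnd2 and Ccnd3, the kinases Cdk4 and Cdk6, and the retinoblastoma gene Rb1. The genes were selected by symbol, with no measured value in the rule, though earlier results of these data were known. All 10 were found among the 20207 genes of the files. All 10 also had a summed level above 1 RPKM over the libraries, as did 12561 genes in all, and those genes were tested.

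The libraries were made from sorted mouse bone marrow cells, to compare gene expression of chronic myeloid leukaemia (CML) cells with that of normal cells at matched stages. Normal mice carried the Tal1-tTA transgene and CML-affected mice carried Tal1-tTA and TRE-BCR-ABL1. Both were studied after doxycycline withdrawal, which lets tTA switch on BCR-ABL1, the fusion kinase of CML, in cells where the Tal1 control elements are active, haematopoietic stem cells (HSCs) among them. Stem cells were sorted within the cKit+Lin-Sca-1+ (KLS+) gate as CD48-CD135- cells, the CD150+ fraction being called long-term (LT) and the CD150- fraction short-term (ST), and KLS- progenitors were cKit+Lin-Sca-1-. There were 8 libraries in 6 groups, with 2 libraries of LT-HSC, 2 of LT-CML and 1 each of ST-HSC, ST-CML, normal KLS- and CML-KLS-. By the labels, LT-HSC replicate 1, ST-HSC and normal KLS- came from mice of 2 months and LT-HSC replicate 2 from mice of 6 months, whereas no age is given for the CML libraries. The labels name the strain C57BL/6 throughout, whereas the methods describe young adult male and female littermates of FVB/N background. Any strain or age difference between normal and CML mice cannot be told apart from disease. The sources do not say whether replicates came from separate animals or how many were pooled, so the tests measure only the spread between libraries.

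D cyclins bind Cdk4 or Cdk6, and the complex phosphorylates the retinoblastoma protein, which then releases E2F factors that transcribe the genes of DNA replication. Ink4 proteins bind the kinases directly and keep D cyclins away, whereas Cip/Kip proteins bind cyclin-kinase complexes and mainly block those containing Cdk2. In bone marrow these inhibitors are known for holding HSCs in quiescence, and D cyclins for joining growth factor signals to division.

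RPKM scales the reads of a gene to its length and to the size of the library, so that levels of different genes can be compared. Depth was estimated from the steps between low values at 17.8 to 23.9 M reads, an approximate figure because 63.7% of the 4973 low genes examined lay on whole steps, within 0.03 of 1 read. The smallest number of reads estimated behind a value of the 10 genes was 43.0, for Cdkn2d, where counting error alone was 15.3%. The sorting markers followed the gates for Ly6a (Sca-1), at 72.4 to 152 RPKM in LT and ST libraries and 8.16 and 11.7 RPKM in KLS- libraries. Slamf1 (CD150) was at 10.7 to 35.5 RPKM in LT libraries and 1.11 and 2.87 RPKM in ST libraries. Cd48 and Flt3 (CD135) RNA did not follow the CD48-CD135- gate. Cd48 was at 10.45 and 5.17 RPKM in LT-HSC, 16.8 and 29.5 RPKM in LT-CML, 41.8 RPKM in ST-HSC and 45.15 RPKM in ST-CML. Flt3 was at 61.6 and 71.6 RPKM in the ST libraries, and was higher in LT-CML (11.9 and 19.2 RPKM) than in LT-HSC (3.95 and 2.52 RPKM, adjusted p = 0.0184 from limma). Summed RPKM of 9 neutrophil and monocyte genes was 576.5 and 4040 in LT-HSC replicates 1 and 2, 319 and 2711 in LT-CML replicates 1 and 2, 247 in ST-HSC, 1542 in ST-CML, 9509 in normal KLS- and 15580 in CML-KLS-. Replicate 2 had the higher sum in both LT groups. Each of the 9 genes was higher in replicate 2 than in replicate 1 in both, but the largest genes differed. In LT-HSC replicate 2 they were S100a8 (1802 RPKM) and S100a9 (856 RPKM), with Mpo at 69.9 RPKM. In LT-CML replicate 2 they were Mpo (1291 RPKM) and S100a8 (588.5 RPKM, against 93.8 RPKM in replicate 1). Summed erythroid markers were at 42.35 and 93.0 RPKM in LT-HSC, 7.02 and 9.40 RPKM in LT-CML, 26.05 RPKM in ST-HSC, 96.7 RPKM in ST-CML and 826 and 1814 RPKM in KLS- libraries, with Hba-a1 listed at 0 in all 8. Megakaryocyte markers summed to 275 to 469 RPKM in LT, 30.9 and 43.4 RPKM in ST, and 88.1 and 55.4 RPKM in KLS- libraries. B and T cell markers summed to 32.4 to 58.8 RPKM, of which Cd79b made up 30.2 to 46.3 RPKM. In such sorted populations, fewer cells of a type and less RNA per cell cannot be told apart.

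On mm9 (GENCODE M1 annotation), Cdkn1b lies at chr6:134870419-134875531 and Ccnd2 on the same chromosome at chr6:127075797-127101066. Cdkn1a (chr17:29227924-29237667) and Ccnd3 (chr17:47642000-47736632) share chromosome 17. The remaining genes are Cdkn2c (chr4:109333481-109339794), Cdkn2d (chr9:21092907-21095653), Ccnd1 (chr7:152115836-152125774), Cdk4 (chr10:126500590-126504976), Cdk6 (chr5:3343893-3523218) and Rb1 (chr14:73583480-73725629). Cdkn1a, Cdkn1b, Ccnd3, Cdk4 and Cdk6 are on the plus strand and the others on the minus strand.

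The promoters of the members on which the results turn are shown because the RNA of these genes differed between the groups. RefSeq windows on GRCm38.p6, of the 250 bases before a transcription start, were available for 7 of the 10 genes, with 10 starts in all. Ccnd1, Ccnd2 and Rb1 had no entry. The motifs searched on both strands were the E-box CACGTG (bound by Myc and related factors), CCAAT, the GC box GGGCGG, the E2F element TTTNGCGC, the FOXO element TGTTTAC, the STAT element TTCNNNGAA and the decamer of the p53 response element. Matches are in capitals and did not overlap each other in the windows printed.

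Cdkn1b is shown as the member that passed the test between CML and normal stem cells.
Cdkn1b, chr6:134920151-134920400, plus strand: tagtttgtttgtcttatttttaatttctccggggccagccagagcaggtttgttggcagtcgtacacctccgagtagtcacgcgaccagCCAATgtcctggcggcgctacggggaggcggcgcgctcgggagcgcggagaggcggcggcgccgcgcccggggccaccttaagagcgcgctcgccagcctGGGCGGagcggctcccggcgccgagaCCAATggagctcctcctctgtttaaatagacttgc
Cdkn1a, the other Cip/Kip gene, has 2 annotated starts, listed in the order of RefSeq.
Cdkn1a first start, chr17:29090729-29090978, plus strand: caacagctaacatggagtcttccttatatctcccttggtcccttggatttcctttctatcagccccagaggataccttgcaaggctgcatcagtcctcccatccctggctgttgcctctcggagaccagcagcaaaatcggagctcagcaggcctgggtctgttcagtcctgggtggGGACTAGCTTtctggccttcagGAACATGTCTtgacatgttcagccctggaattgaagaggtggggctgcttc
Cdkn1a second start, chr17:29093519-29093768, plus strand: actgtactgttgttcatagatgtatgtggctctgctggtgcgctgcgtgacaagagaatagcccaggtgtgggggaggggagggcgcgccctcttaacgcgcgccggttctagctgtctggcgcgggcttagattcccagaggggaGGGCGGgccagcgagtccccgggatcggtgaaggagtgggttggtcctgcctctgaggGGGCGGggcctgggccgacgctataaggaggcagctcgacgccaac
Ccnd3 is shown as the D cyclin that passed the test against LT in both ST and KLS- cells, and its 2 starts follow.
Ccnd3 first start, chr17:47504801-47505050, plus strand: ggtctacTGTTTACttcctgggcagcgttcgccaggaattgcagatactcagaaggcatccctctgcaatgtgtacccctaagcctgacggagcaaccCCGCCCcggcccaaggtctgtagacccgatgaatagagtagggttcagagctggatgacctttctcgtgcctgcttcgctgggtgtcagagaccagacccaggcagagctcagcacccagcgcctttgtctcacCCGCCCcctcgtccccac
Ccnd3 second start, chr17:47593217-47593466, plus strand: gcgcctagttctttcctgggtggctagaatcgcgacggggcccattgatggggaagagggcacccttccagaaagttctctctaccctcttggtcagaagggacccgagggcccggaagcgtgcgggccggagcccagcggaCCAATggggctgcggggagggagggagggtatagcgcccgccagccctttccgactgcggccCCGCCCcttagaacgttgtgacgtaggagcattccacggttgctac
Cdk4 is shown as the member that was higher in KLS- progenitors.
Cdk4, chr10:127063285-127063534, plus strand: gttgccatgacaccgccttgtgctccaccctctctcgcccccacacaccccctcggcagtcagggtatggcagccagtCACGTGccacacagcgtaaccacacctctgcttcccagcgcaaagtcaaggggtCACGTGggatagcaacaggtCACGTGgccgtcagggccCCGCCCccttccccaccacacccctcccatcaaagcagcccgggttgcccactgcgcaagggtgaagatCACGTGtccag

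The Cdkn1b window held 2 CCAAT boxes and 1 GC box, motifs present in 33.9% and 32.7% of the 32851 promoter windows of that length. The first Cdkn1a start had 2 p53 decamers, 73 to 64 and 51 to 42 bases before the start, and 7.13% of windows had at least 1. The second Cdkn1a start had 2 GC boxes and no p53 decamer match. The first Ccnd3 start carried 2 GC boxes and a FOXO element 243 to 237 bases upstream, found in 3.17% of windows, and the second carried 1 CCAAT box and 1 GC box. The Cdk4 window held 1 GC box and 4 E-boxes, whereas 6.02% of windows had any and 7 windows had at least 4. None of the printed windows matched the E2F or STAT elements, which were in 1.13% and 7.02% of windows. These matches describe letters and not binding.

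Cdkn1b, which encodes the p27 inhibitor that accumulates in resting cells, was lower in CML than in normal cells of each population. Its level was 14.6 and 14.95 RPKM in LT-HSC, 15.95 RPKM in ST-HSC and 7.31 RPKM in normal KLS-. In the CML libraries it was 7.47 and 5.94 RPKM in LT-CML, 7.36 RPKM in ST-CML and 3.06 RPKM in CML-KLS-. Every normal stem cell library lay above every CML stem cell library, and CML stem cells were at the level of normal KLS- progenitors. Over the 3 normal and 3 CML stem cell libraries, LT and ST pooled, the mean fell 2.19-fold, from 15.2 ± 0.689 RPKM to 6.92 ± 0.856 RPKM (SD, n = 3 each). The log2 fold change was -1.03 (SE 0.14), with an adjusted p of 0.0121 from limma with Benjamini-Hochberg adjustment over all 12561 genes. All log2 fold changes are on the log2(RPKM + 1) scale and understate changes of low genes. Cdkn1b was the only member of 10 to pass the threshold of 0.05, which 294 genes passed (2.34% of those tested). The call was lost without LT-HSC replicate 1 (log2 fold change -1.06, adjusted p = 0.0662 from limma) and without LT-CML replicate 1 (-1.09, adjusted p = 0.0553 from limma). The exact two-sided permutation p was 0.1, the smallest that 3 against 3 allows.

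The Cdkn1b ratio of CML to normal was 0.453 in LT, 0.462 in ST and 0.418 in KLS- cells. On the log2 scale the CML effect in ST minus that in LT was 0.02 (SE 0.35), and in KLS- minus that in LT was 0.01 (SE 0.35), with an adjusted p of 1 for both from limma. In each of these tests of a difference 3 genes passed the threshold (0.0239%), none of them a member, and the SE leaves room for sizeable differences. At an unadjusted p under 0.05, 0 members passed in KLS-, where 3.76% of all genes did, and 1 in ST, where 2.19% did.

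Cdkn1a, which encodes p21, the Cip/Kip inhibitor induced by p53, had the highest level of the 4 inhibitors in every library. It was at 19.7 and 38.05 RPKM in LT-HSC, 19.8 RPKM in ST-HSC and 9.41 RPKM in normal KLS-, and at 8.17 and 15.8 RPKM in LT-CML, 7.72 RPKM in ST-CML and 6.20 RPKM in CML-KLS-. The lowest normal stem cell value was above the highest CML value, but replicate 2 was 1.93-fold above replicate 1 in both LT-HSC and LT-CML. These were also the libraries with the higher neutrophil and monocyte sums (4040 and 2711 RPKM, against 576.5 and 319 RPKM). Each gene of that list was higher in replicate 2 in both groups, and the part of these genes in the result was not tested. In LT-HSC, replicate 2 was also labelled 6 months and replicate 1 was labelled 2 months. That age difference cannot be told apart from the marker difference. The mean was 25.9 ± 10.55 RPKM in normal HSCs and 10.55 ± 4.52 RPKM in CML stem cells (SD, n = 3 each), a log2 fold change of -1.22 (SE 0.33) that did not pass the threshold (adjusted p = 0.147 from limma). It passed only in the additive fit of all 8 libraries (-1.05, adjusted p = 0.0463 from limma), among alternatives whose adjusted p ran from 0.0463 to 0.395. The exact two-sided permutation p was again 0.1. Cdkn1a and Cdkn1b were the 2 members of 10 whose CML stem libraries all lay below the normal ones, a pattern seen in 11.4% of the genes tested.

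**Figure D1:**
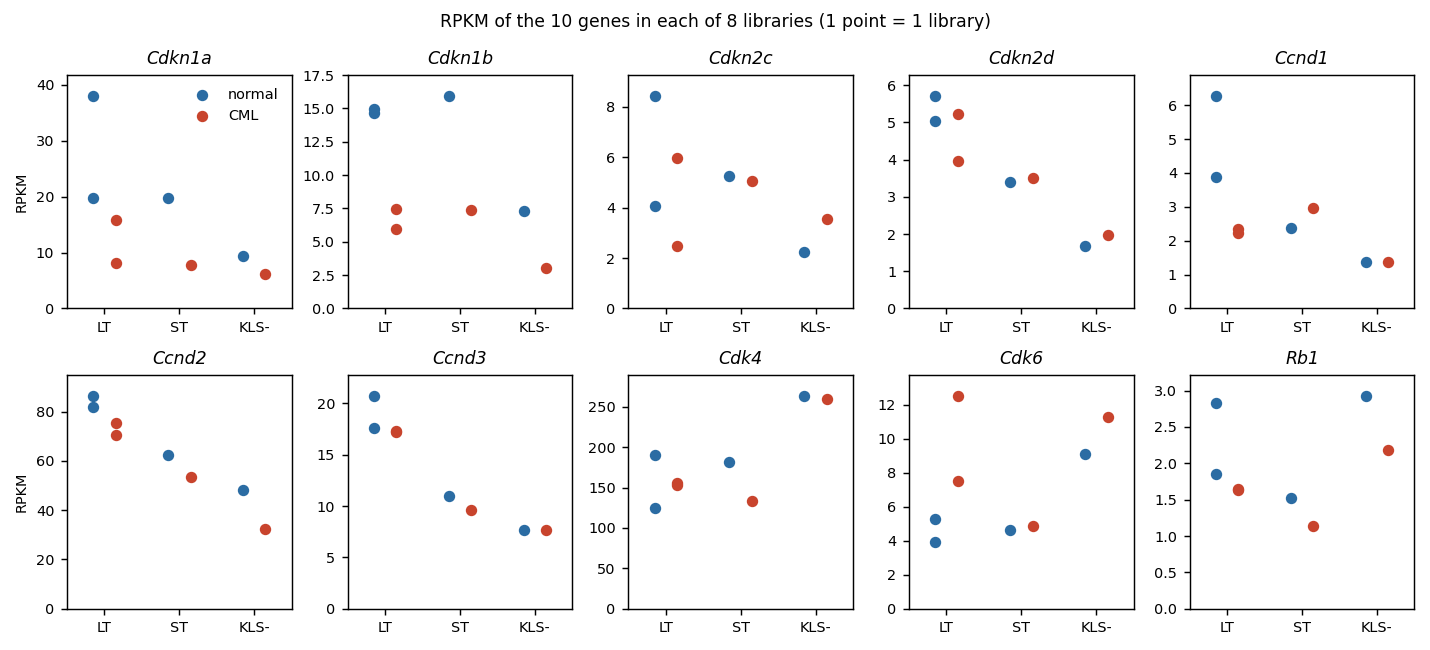
RPKM (linear axis from 0, scaled separately for each gene) of the 10 genes in the LT, ST and KLS- populations, each point being 1 library, blue for normal and red for CML. Cdkn1b is lower in CML within each population, with 14.6 to 15.95 RPKM in normal and 5.94 to 7.47 RPKM in CML stem cells. Cdkn1a, Ccnd2, Ccnd3 and Rb1 are also lower in CML within each population, and Cdk6 is higher. ST and KLS- have 1 library for each disease. Ccnd2 and Ccnd3 step down from LT to ST to KLS-.

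Between the LT libraries alone, which are 4 of the 6 libraries of the pooled comparison and so not independent of it, 217 genes passed the threshold (1.73%) and 0 of the 10 members did in limma, the only tool run. At an unadjusted p under 0.05, 4 members passed, namely Cdkn1a, Cdkn1b, Ccnd1 and Cdk6, as did 11.6% of all genes. Of the markers of other cells, the erythroid gene Car1 (30.6 and 26.7 RPKM in LT-HSC, 2.71 and 6.11 RPKM in LT-CML, adjusted p = 0.00946 from limma) and the B cell gene Cd79a (1.66 and 3.34 RPKM against 0.0728 and 0.331 RPKM, adjusted p = 0.0357 from limma) were lower in LT-CML, and their part in these differences was not tested. Cdkn1b had a mean of 14.8 ± 0.226 RPKM in LT-HSC and 6.70 ± 1.08 RPKM in LT-CML (SD, n = 2 each), a log2 fold change of -1.04 (SE 0.20) with an adjusted p of 0.0549 from limma. That p was 0.0275 when only genes with a mean of at least 1 RPKM were tested, and 0.0275 to 0.394 over the alternatives. The log2 fold change was -1.20 for Cdkn1a (SE 0.37, adjusted p = 0.237 from limma). For Cdkn2c, Cdkn2d, Ccnd3 and Rb1 it was -0.49, -0.20, -0.14 and -0.32 (adjusted p = 0.737, 0.818, 0.863 and 0.654 from limma). The SE of these values were 0.40, 0.21, 0.19 and 0.21. Ccnd1, Ccnd2, Cdk4 and Cdk6 are given below.

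Among the Ink4 inhibitors neither gene separated CML from normal stem cells. Cdkn2c, encoding p18, was at 4.08 and 8.44 RPKM in LT-HSC, 5.24 RPKM in ST-HSC, 2.23 RPKM in normal KLS-, 5.98 and 2.48 RPKM in LT-CML, 5.04 RPKM in ST-CML and 3.55 RPKM in CML-KLS-. Its LT replicates differed by 2.07-fold in LT-HSC and 2.41-fold in LT-CML, and all 6 groups, placed in order of level, differed from their neighbours by less than the pooled SD between LT replicates (0.67 on the log2 scale). The LT-HSC libraries also differ in labelled age (2 and 6 months), which this SD does not set apart. The log2 fold change was -0.34 (SE 0.32, adjusted p = 0.744 from limma) for CML stem cells against normal HSCs. Cdkn2d, encoding p19, was at 5.72 and 5.04 RPKM in LT-HSC, 3.39 RPKM in ST-HSC, 1.67 RPKM in normal KLS-, 3.95 and 5.23 RPKM in LT-CML, 3.50 RPKM in ST-CML and 1.99 RPKM in CML-KLS-. It stepped down from LT through ST to KLS- in both diseases, with no overlap between populations. Of the genes tested, 12.9% had all ST libraries below all LT libraries, and 32.2% had all KLS- libraries below all LT libraries. The log2 fold change for CML stem cells against normal HSCs was -0.12 (SE 0.21, adjusted p = 0.872 from limma).

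KLS- progenitors were compared with LT cells in a fit of all 8 libraries with disease as a covariate. Of the 10 members, 6 were lower in KLS-, where 25.5% of all genes were, and 1 was higher, where 20.8% were. Of all genes called, 44.9% were higher in KLS-. Scaling to the upper quartile moved the median of all genes by -0.14 on the log2 scale and the share higher to 30.4%. Markers of other cells moved in the same comparison. Of 9 neutrophil and monocyte genes 4 were called higher in KLS- (Mpo, Prtn3, Ctsg and Csf1r) and Ltf was called lower, with a list median of -0.85, and Mpo alone made up 7891 of 9509 RPKM in normal KLS- and 13120 of 15580 RPKM in CML-KLS-. Of 5 erythroid genes tested 3 were called higher, and all 4 megakaryocyte genes were called lower. The part of these cells in the differences was not tested. With both inhibitor families and all 3 D cyclins among the lower members, Cdkn2c was the exception. Cdkn2d fell from 4.98 ± 0.745 RPKM (SD, n = 4) in LT to 1.83 ± 0.224 RPKM (SD, n = 2) in KLS- (log2 fold change -1.07, SE 0.16, adjusted p = 0.00102 from limma). Cdkn1b was at 10.75 ± 4.71 RPKM (SD, n = 4) in LT, a spread that holds the disease difference, and at 5.18 ± 3.01 RPKM (SD, n = 2) in KLS- (-0.92, SE 0.14, adjusted p = 0.000981 from limma). Within each disease the KLS- library was below both LT libraries, at 0.494 of the LT mean in normal and 0.456 in CML cells. Cdkn1a fell by 1.12 on the log2 scale (SE 0.31, adjusted p = 0.0175 from limma), but not without normal KLS- (-0.77, adjusted p = 0.197 from limma). Cdkn2c had a log2 fold change of -0.61 (SE 0.35, adjusted p = 0.178 from limma), and -0.88 with an adjusted p of 0.0348 from limma when LT-CML replicate 2 was left out. Without normal KLS-, 4 of the 10 members passed the threshold in place of 7, while the share of all genes called was 27.1% in place of 46.4%, and all 4 were lower ones, Cdkn1b, Cdkn2d, Ccnd2 and Ccnd3, which also passed in each of the 14 alternatives run.

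Ccnd2 was the main D cyclin RNA of these cells. It made up 77.4% to 84.2% of the summed RPKM of the 3 D cyclins in the 8 libraries, and Ccnd3 made up 13.4% to 19.2% and Ccnd1 2.35% to 5.94%. The Ccnd2 share thus varied little while the sum was 100 ± 9.57 RPKM in LT (SD, n = 4), 70.8 ± 6.73 RPKM in ST (SD, n = 2) and 49.4 ± 11.4 RPKM in KLS- libraries (SD, n = 2). The sum was lower in the CML than in the normal library or libraries of each population, from 90.1 and 94.85 RPKM against 106 and 111 RPKM in LT to 41.4 against 57.5 RPKM in KLS-.

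**Figure D2:**
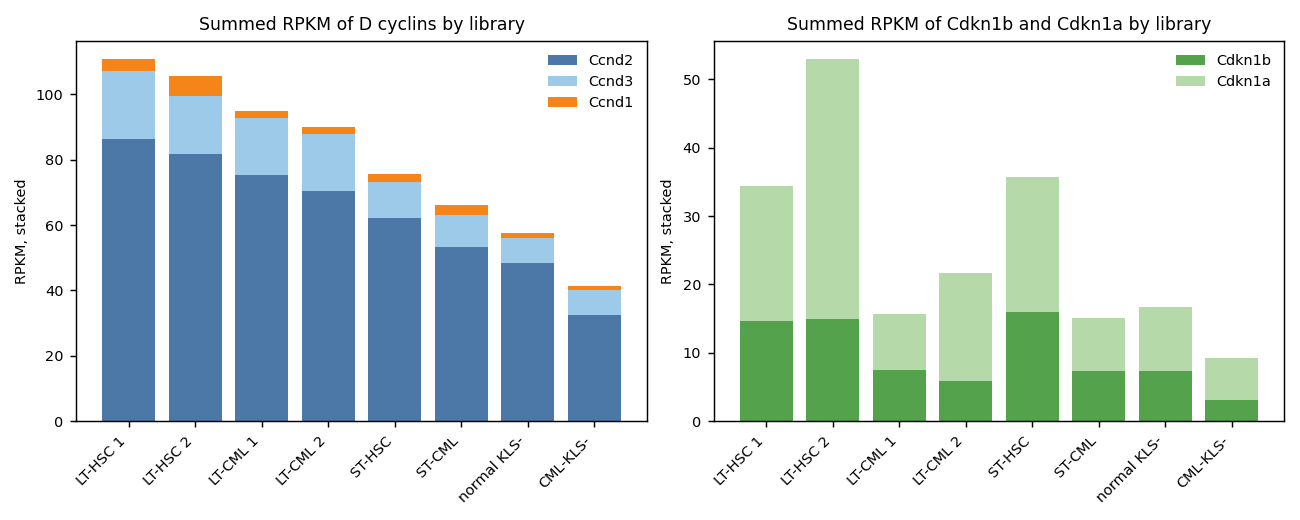
Stacked RPKM by library of the D cyclins (left; Ccnd2, Ccnd3, Ccnd1) and of Cdkn1b and Cdkn1a (right), with bars starting at 0. The D cyclin bars fall from 111 RPKM in LT-HSC replicate 1 to 41.4 RPKM in CML-KLS-, with Ccnd2 the largest segment in all 8 bars, and the 2 inhibitors sum to 34.4 to 53 RPKM in normal stem cells and 15.1 to 21.7 RPKM in CML stem cells.

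Ccnd2 was at 86.3 and 81.7 RPKM in LT-HSC, 75.4 and 70.4 RPKM in LT-CML, 62.25 RPKM in ST-HSC, 53.4 RPKM in ST-CML, 48.4 RPKM in normal KLS- and 32.4 RPKM in CML-KLS-. The 6 groups stood in that order, and each step was larger than the pooled SD between LT replicates (0.06 on the log2 scale). That SD rests only on the LT-CML pair and the LT-HSC pair, the latter labelled 2 and 6 months. Because the ST and KLS- groups are single libraries, the order was not tested. KLS- was lower than LT by 0.97 on the log2 scale in a test with disease as a covariate (log2 fold change -0.97, SE 0.13, adjusted p = 0.000632 from limma). ST was also below LT in every library, a pattern seen in 12.9% of the genes tested. The log2 fold change of ST against LT was -0.43 (SE 0.13). It did not pass the threshold (adjusted p = 0.104 from limma) except under quantile normalization (adjusted p = 0.0491 from limma). CML stem cells against normal HSCs gave -0.21 (SE 0.19, adjusted p = 0.736 from limma). LT-CML against LT-HSC gave -0.20 (SE 0.17, adjusted p = 0.755 from limma). Both LT-CML libraries lay below both LT-HSC libraries, a pattern seen in 23.0% of all genes tested.

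Ccnd3, the D cyclin also known for its role in maturing blood cells, was at 20.7 and 17.6 RPKM in LT-HSC, 17.2 and 17.3 RPKM in LT-CML, 10.96 RPKM in ST-HSC, 9.65 RPKM in ST-CML, 7.71 RPKM in normal KLS- and 7.69 RPKM in CML-KLS-. All 4 LT libraries lay above both ST libraries, and these above both KLS- libraries. Of the genes tested, 12.9% had all LT libraries above both ST libraries, and 32.2% had them above both KLS- libraries. The KLS- libraries differed by less than the LT replicate spread, which in LT-HSC includes labelled ages of 2 and 6 months. It was the only member of 10 called between ST and LT (log2 fold change -0.76, SE 0.13, adjusted p = 0.0127 from limma), where 612 genes were called (4.87%). With 1 ST library per disease, this call was lost without ST-HSC (-0.80, adjusted p = 0.129 from limma), without ST-CML (-0.73, adjusted p = 0.172 from limma) and in the fit with 1 mean for each group (adjusted p = 0.0581 from limma). KLS- against LT gave -1.14 (SE 0.13, adjusted p = 0.000277 from limma). Its exons share 353 bases with those of Bysl on the opposite strand, and since the use of strand in counting is not stated, reads there cannot be told apart.

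Ccnd1, the D cyclin of lowest level here, was at 3.87 and 6.28 RPKM in LT-HSC, 2.37 RPKM in ST-HSC, 1.38 RPKM in normal KLS-, 2.23 and 2.34 RPKM in LT-CML, 2.97 RPKM in ST-CML and 1.36 RPKM in CML-KLS-. Both LT-HSC libraries were above all 6 others, and the ratio of CML to normal was 0.451 in LT, 1.25 in ST and 0.986 in KLS- cells. The CML effect in ST minus that in LT was 1.09 on the log2 scale (SE 0.41), with an adjusted p of 1 from limma, so that the difference between populations did not pass the threshold. The log2 fold change of LT-CML against LT-HSC was -0.86 (SE 0.24, adjusted p = 0.174 from limma), and that of CML stem cells against normal HSCs -0.49 (SE 0.27, adjusted p = 0.533 from limma). KLS- against LT gave -0.90 (SE 0.27, adjusted p = 0.0225 from limma). This call was lost with no filter on low values (adjusted p = 0.0647 from limma), under quantile normalization (-0.62, adjusted p = 0.124 from limma), without normal KLS- (-0.66, adjusted p = 0.212 from limma) and without CML-KLS- (-1.14, adjusted p = 0.0578 from limma). Ccnd1 shares 818 exon bases with Oraov1 on the opposite strand.

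Of the kinases that D cyclins activate, Cdk4 had the highest level of all members in every library and was higher in KLS- cells. Its level was 190.5 and 124.5 RPKM in LT-HSC, 181 RPKM in ST-HSC, 263 RPKM in normal KLS-, 156 and 154 RPKM in LT-CML, 134 RPKM in ST-CML and 260.1 RPKM in CML-KLS-. Both KLS- libraries were above the other 6, and 25.0% of the genes tested had both above all LT libraries. The LT and ST groups, in order of level, each differed from the next by less than the pooled SD between LT replicates (0.305 on the log2 scale). That SD includes the difference between LT-HSC libraries labelled 2 and 6 months (190.5 and 124.5 RPKM), whereas the LT-CML libraries were at 156 and 154 RPKM. The mean was 156 ± 27.0 RPKM in LT (SD, n = 4) and 262 ± 2.26 RPKM in KLS- (SD, n = 2), with a log2 fold change of 0.76 (SE 0.18, adjusted p = 0.00919 from limma). Under quantile normalization the value was 0.16 (adjusted p = 0.405 from limma), and without normal KLS- or CML-KLS- the adjusted p was 0.0542 or 0.0957 from limma. Cdk4 RNA was 1.18 to 1.72 times the D cyclin sum in LT libraries, 2.03 and 2.40 times in ST and 4.58 and 6.28 times in KLS- libraries. Neither disease comparison passed the threshold (-0.14, SE 0.18, adjusted p = 0.817 from limma for CML stem cells against normal HSCs, and 0.01, SE 0.23, adjusted p = 0.995 from limma for LT-CML against LT-HSC). Its exons share 604 bases with Tspan31 on the opposite strand.

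Cdk6, the kinase tied to exit of HSCs from quiescence, was at 5.26 and 3.93 RPKM in LT-HSC, 4.61 RPKM in ST-HSC, 9.13 RPKM in normal KLS-, 7.53 and 12.5 RPKM in LT-CML, 4.84 RPKM in ST-CML and 11.3 RPKM in CML-KLS-. Both LT-CML libraries were above the 3 normal stem cell libraries, whereas ST-CML lay within their range. The ratio of CML to normal was 2.18 in LT, 1.05 in ST and 1.23 in KLS- cells. The log2 fold change was 0.95 for LT-CML against LT-HSC (SE 0.27, adjusted p = 0.188 from limma) and 0.65 for CML stem cells against normal HSCs (SE 0.29, adjusted p = 0.422 from limma), neither past the threshold. The CML effect in ST minus that in LT was -0.89 (SE 0.47), and in KLS- minus that in LT -0.67 (SE 0.47), each with an adjusted p of 1 from limma. Cdk6 made up 2.48% to 3.06% of the summed RPKM of Cdk4 and Cdk6 in normal stem cells and 3.49% to 7.53% in CML stem cells. In ST the shares were 2.48% and 3.49%, with Cdk4 at 181 RPKM in ST-HSC and 134 RPKM in ST-CML. The 7.53% was in LT-CML replicate 2, which had the higher neutrophil and monocyte sum of its pair (2711 against 319 RPKM). In LT-HSC the replicate with the higher sum had the lower Cdk6. The part of these cells was not tested. KLS- against LT gave 0.53 (SE 0.26, adjusted p = 0.12 from limma), and 0.74 with an adjusted p of 0.0173 from limma without LT-CML replicate 2. Cdk6 shares 60 exon bases with Gm17590 on the opposite strand.

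Rb1, which encodes the retinoblastoma protein, was the member of lowest level in the LT and ST libraries. It was at 1.85 and 2.83 RPKM in LT-HSC, 1.52 RPKM in ST-HSC, 2.92 RPKM in normal KLS-, 1.64 and 1.65 RPKM in LT-CML, 1.14 RPKM in ST-CML and 2.18 RPKM in CML-KLS-. In each population the CML libraries were below the normal ones, a pattern that 23.0% of all genes tested showed in LT. The log2 fold change was -0.29 for CML stem cells against normal HSCs (SE 0.19, adjusted p = 0.613 from limma). KLS- against LT gave 0.26 (SE 0.15, adjusted p = 0.183 from limma), and 0.51 with an adjusted p of 0.0231 from limma under quantile normalization. Rb1 shares 488 exon bases with Rcbtb2 and 408 with Lpar6, both on the opposite strand.

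**Figure D3:**
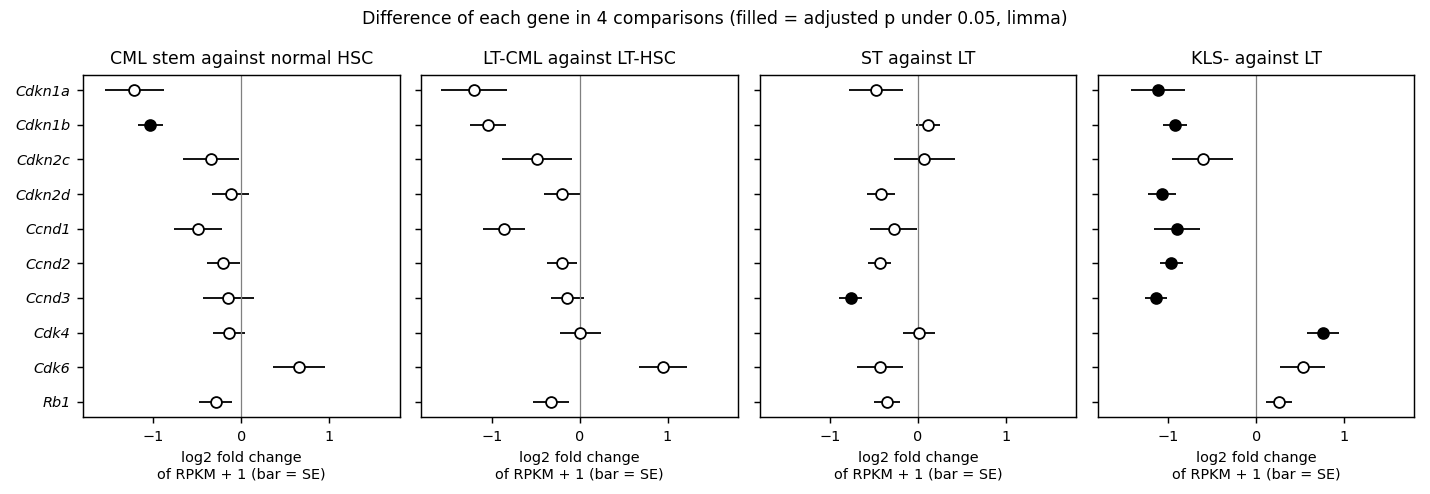
Log2 fold change of RPKM + 1 of the 10 genes in 4 comparisons (points, with bars of 1 SE), filled where the adjusted p from limma is under 0.05. Cdkn1b is the filled point for CML stem cells against normal HSCs (-1.03) and Ccnd3 for ST against LT (-0.76), whereas 7 points are filled for KLS- against LT.

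No gene of the further cell cycle lists passed the threshold between diseases. Between CML stem cells and normal HSCs, 0 genes passed in limma among 4 other inhibitors and pocket proteins, 8 genes of the Cdk2 module, 10 E2F and DP factors, 14 S phase genes, 11 G2 and M phase genes and 10 p53 targets. At an unadjusted p under 0.05 the count was also 0 in each list, where 12.5% of all genes tested passed. The median log2 fold change was -0.30 for the other inhibitors, -0.14 for the Cdk2 module, -0.04 for E2F and DP factors, -0.24 for S phase genes, 0.02 for G2 and M phase genes and -0.10 for p53 targets, beside -0.04 over all genes tested. In LT-CML against LT-HSC 0 genes of these lists passed, and at most 1 in any list had an unadjusted p under 0.05, as did 11.6% of all genes tested. The further Ink4 genes of the list, Cdkn2a and Cdkn2b, were under the filter, at up to 0.0631 and 0.0789 RPKM.

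In KLS- against LT most S phase, G2 and M phase and Cdk2 module genes were called higher, whereas the E2F and DP factors were split. Over all genes tested, 20.8% were called higher and 25.5% lower. Of the S phase genes 11 of 14 rose (median log2 fold change 0.82, beside -0.07 over all genes tested), led by Rrm2, a subunit of ribonucleotide reductase (2.11, SE 0.22, adjusted p = 0.000178 from limma), and Cdc6, which loads the replicative helicase (2.06, SE 0.26, adjusted p = 0.000473 from limma). Of the Cdk2 module 6 of 8 rose, among them the E cyclins Ccne1 (1.60, SE 0.15) and Ccne2 (1.47, SE 0.20) and Skp2 (1.04, SE 0.17), part of the ubiquitin ligase that marks p27 for destruction. Of G2 and M phase genes 7 of 11 rose, with Aurka, a mitotic kinase, at 1.21 (SE 0.22). Of the E2F and DP factors 3 rose (E2f8, Tfdp1 and E2f4) and 3 fell (E2f5, Tfdp2 and E2f7), with a median of -0.03. Without normal KLS- the medians of S phase and of G2 and M phase genes were 1.05 and 0.78. Without CML-KLS- they were 0.63 and 0.73, beside 0.82 and 0.61 with both libraries. When either KLS- library was left out, fewer genes of both lists, and of all genes, were called higher. Under quantile normalization 6 of 14 S phase and 5 of 11 G2 and M phase genes rose, and under upper quartile scaling 8 and 5. Pcna, called higher at 0.48, was at -0.11 under quantile normalization.

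Other inhibitors of the list differed in direction. Cdkn1c, encoding p57, the remaining Cip/Kip inhibitor, was at 4.04 and 8.99 RPKM in LT-HSC, 1.82 RPKM in ST-HSC, 3.86 and 2.08 RPKM in LT-CML and 3.08 RPKM in ST-CML, and was listed at 0 in both KLS- libraries (adjusted p = 0.00119 from limma for KLS- against LT). Rbl2, a relative of Rb1 linked to resting cells, fell by 0.90 on the log2 scale (SE 0.16, adjusted p = 0.00231 from limma), whereas Cdkn3, a phosphatase of cyclin-dependent kinases, rose by 0.59 (SE 0.13, adjusted p = 0.00671 from limma), but not under upper quartile scaling or with either KLS- library left out. Of the p53 targets, to which Cdkn1a belongs by function, Bax rose (1.46, SE 0.18) and 4 of 10 fell (Btg2, Trp53inp1, Mdm2 and Bbc3), beside 20.8% and 25.5% of all genes. Over the alternatives 1 to 2 of these targets were called higher and 2 to 5 lower, the latter being 2 without normal KLS- and 5 under upper quartile scaling.

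ST against LT showed the opposite sign for dividing cell genes. All 11 G2 and M phase genes fell (median log2 fold change -1.30, beside -0.01 over all genes tested), where 2.74% of all genes were called lower. Mki67, the proliferation marker, was at 28.4 and 25.3 RPKM in LT-HSC, 18.7 and 24.6 RPKM in LT-CML, 9.20 RPKM in ST-HSC and 5.04 RPKM in ST-CML (-1.67, SE 0.17, adjusted p = 0.00222 from limma). The median of S phase genes was -0.58. Without ST-HSC the medians of G2 and M phase and of S phase genes were -1.62 and -0.81, and without ST-CML -1.12 and -0.33. When either ST library was left out, fewer genes of both lists, and of all genes, were called lower. In the same comparison all 4 megakaryocyte markers were called lower in ST (Pf4 at -4.14, Vwf at -2.77, Itga2b at -2.30 and Gp9 at -1.14) and Flt3 was called higher (3.04), and their part in the result was not tested. Ccna2 (-1.62, SE 0.16), Cks2 and Cks1b fell in the Cdk2 module, and E2f8, E2f7 and E2f1 among the E2F factors. The S phase genes that fell included Tk1 (-1.34, SE 0.23) and Pcna. Cdkn3 fell from 10.8 to 15.9 RPKM in LT to 4.27 and 3.82 RPKM in ST libraries (adjusted p = 0.00114 from limma), whereas Trp53inp1, a p53 target, rose (0.82, SE 0.16). Cdkn1b, at 0.11 (SE 0.14, adjusted p = 0.698 from limma), and Cdk4, at 0.01 (SE 0.18, adjusted p = 0.976 from limma), did not pass the threshold in this comparison.

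**Figure D4:**
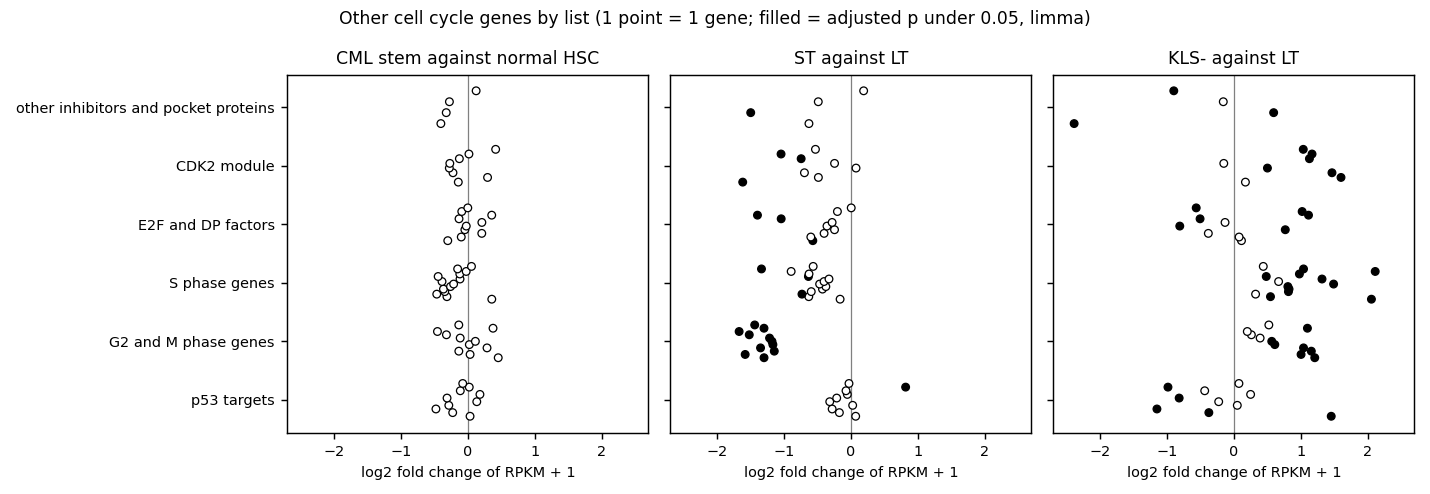
Log2 fold change of RPKM + 1 of the genes of 6 further cell cycle lists in 3 comparisons, each point being 1 gene, filled where the adjusted p from limma is under 0.05. No point is filled for CML stem cells against normal HSCs, all 11 G2 and M phase genes are filled below 0 for ST against LT, and 11 of 14 S phase genes are filled above 0 for KLS- against LT.

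The genes most like each member in pattern over the 8 libraries were found by Pearson's r of log2(RPKM + 1) among 10032 genes with a mean of at least 1 RPKM, as a description. For Cdkn1b these were Mgea5 (r = 0.990), Rnf144a (0.989) and Tpm2 (0.987), for Cdkn1a Yrdc, Rock1 and Rab24 (0.984 to 0.980), for Ccnd2 Ptprs, Runx1 and Gse1 (0.994 to 0.988) and for Ccnd3 Rab27b, Psd3 and Fas (0.990 to 0.982). For Cdk4 they were Mett10d, Srprb and Cct3 (0.994 to 0.991), for Cdk6 Lcmt1, Inpp5f and Mgat5 (0.946 to 0.934), for Ccnd1 Maml1, Fam168b and Stx6 (0.989 to 0.968), for Cdkn2c Stard8, Zfp768 and Macrod1 (0.954 to 0.949), for Cdkn2d Rasgef1b, Ehbp1 and Thrb (0.990 to 0.976) and for Rb1 Mcat, Hiatl1 and Tmsb4x (0.970 to 0.961). Libraries of a population share a gate, and no test was made.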

How the data were processed

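RNA of 8 libraries of sorted mouse bone marrow cells was analysed from RPKM values. The authors made SMARTer Ultra Low Input libraries with oligo-dT primers and ran them paired-end (100 bases). Reads were mapped with SeqNova CS against mm9, and the authors deposited RPKM for each gene. Gene annotation, counting rule, strand use and treatment of reads with several matches are not given in the sources used here. RPKM are not counts, so no count model was used. Groups were taken from the sample labels.

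Values were analysed as log2(RPKM + 1) with limma 3.58.1 in R 4.3.3 (lmFit, then eBayes with an intensity trend), on the 12561 genes whose values summed to more than 1 RPKM. P-values were adjusted after Benjamini and Hochberg (threshold 0.05). Normal and CML stem cells were compared without a covariate (3 against 3). LT-CML was compared with LT-HSC, and CML effects between populations, in a fit with 1 mean for each of 6 groups (2 residual degrees of freedom). Populations were compared in an additive fit with disease (4 residual degrees of freedom). Exact two-sided permutation tests used RPKM. The fits were also run on simulated data with normal noise and changes larger than those of the members. Sensitivity to changes of the size reported here was therefore not assessed. Alternatives covered the pseudocount (0.1), the filter, quantile and upper quartile scaling, the model and leaving out each library; those applied to the further lists were added after seeing the data.

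The members and lists were chosen with earlier results of these data known. All 10 members are named, with, for each further list and comparison, at most the 4 genes of largest change past the threshold plus those counted singly, and the 3 genes most like each member. A gene that this rule would name is not reported here. Reads and counting errors were estimated with GENCODE M1 exon lengths on mm9, the scale of depth being held by 1078 of 2911 low genes, and cover sampling of reads only. Promoters are RefSeq windows on GRCm38.p6. Python 3.11.15, pandas 2.3.3 and scipy 1.17.1 were used otherwise.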

Additional observations from a re-analysis of the deposited data

How the results depend on the processing

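Over the alternatives, the call of Cdkn1b in CML stem cells held in 11 of 13 and those of Cdkn1b, Cdkn2d, Ccnd2 and Ccnd3 in KLS- against LT in 14 of 14. No paired analysis was possible because the labels of the normal LT libraries carry ages and no replicate numbers. In the fit with 1 mean for each group, the residual spread came from the LT pairs alone, since the ST and KLS- groups are single libraries. That spread was assumed to hold in the ST and KLS- groups. A fit that leaves out 1 LT library likewise assumes that the lone sample varies like the other groups. Unless stated otherwise, the cause of a shift was not tested.

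For CML stem cells against normal HSCs the number of genes called was 294, and 193 with no filter on low values, 543 with cell type as a covariate, 776 in the additive fit and 115 to 217 when 1 library was left out. Members called were 1, and 2 in the additive fit and 0 to 1 with 1 library left out. For LT-CML against LT-HSC 217 genes were called, 0 with no filter on low values (1765 at an unadjusted p under 0.05 in limma) and 6 to 225 with 1 library left out, and 1 member was called with a mean of at least 1 RPKM. For KLS- against LT 2879 to 5574 genes and 4 to 9 members were called with 1 library left out. For ST against LT 283 genes were called with no filter, 392 with 1 mean for each group and 110 to 718 with 1 library left out, and 2 members under quantile normalization, 0 with 1 mean for each group and 0 to 1 with 1 library left out. For the CML effect in KLS- minus that in LT, 3 genes were called, 1 with a mean of at least 1 RPKM, 0 under each of pseudocount 0.1, no filter, quantile and upper quartile scaling, and 0 to 3 with 1 library left out. For the CML effect in ST minus that in LT, 3 genes were called, 5 with a mean of at least 1 RPKM, 0 with pseudocount 0.1 or no filter, and 0 to 3 with 1 library left out. Upper quartile scaling moved the median of all genes in this last comparison by 0.23.

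Members that changed sign had not been called, and ranges are log2 fold changes with 1 library left out. For CML stem cells, Cdkn2d was at 0.0087 without LT-HSC replicate 1 (from -0.2983), and Ccnd3 at 0.0307 without LT-HSC replicate 1 and 0.1098 without ST-CML (from -0.3991). For LT-CML against LT-HSC, Cdkn2c ranged from -0.9915 to 0.012 (without LT-CML replicate 2), and Cdk4 from -0.2991 (without LT-HSC replicate 2) to 0.3106, with -0.003 without LT-CML replicate 1 and -0.0143 under upper quartile scaling. For ST against LT, Cdkn2c ranged from -0.1999 (without LT-CML replicate 2) to 0.3224, Ccnd1 from -0.6801 to 0.1315 (without ST-HSC) and Cdk4 from -0.2014 (without ST-HSC) to 0.2307, with -0.0123 under quantile normalization. The Cdkn1b difference of effects ranged from -0.1358 (without LT-CML replicate 2) to 0.1525 in KLS-, with -0.0915 under pseudocount 0.1, and from -0.121 (without LT-CML replicate 2) to 0.1672 in ST. Among the further genes, Pcna in KLS- against LT was at -0.11 under quantile normalization.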
